A study of Homo sapiens with 42 samples.

Results

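The genes described here run protein folding and quality control in the endoplasmic reticulum (ER), together with the stress response that adjusts that capacity. They were listed by name and function: 4 genes of the sensors and XBP1, 8 chaperones and lectins, 6 disulfide isomerases and oxidases, 3 J-domain cochaperones, 9 genes of ER-associated degradation, 9 of the translocon and the translocon-associated protein (TRAP) complex, and 3 of the signal peptidase. Of these 42 genes, 39 were measured among the 14705 genes tested, each by the brightest of its retained probe sets. PDIA5 and SYVN1 are annotated only on probe sets shared with other genes, and SEC61G on none with its symbol, so these genes were not analysed here. Of the 39, 38 read at or above the array's median on all 42 arrays, whereas ERO1B passed the filter on dim probe sets through the control-shRNA line, with 1 of 21 arrays at the median in the BMI1-shRNA line and 21 of 21 in the control-shRNA line.

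The cells are RPMI-8226, an established human multiple myeloma line, and multiple myeloma is a cancer of antibody-secreting plasma cells. One line carried a doxycycline-inducible shRNA against BMI1, which belongs to the chromatin-silencing complex PRC1 of the Polycomb group, and the other an inducible control shRNA. At 24, 32 and 48 h the arrays cover the BMI1-shRNA line with 100 ng/ml doxycycline, the same line without it, the control-shRNA line with 100 ng/ml doxycycline, and that line without it. Each line was also profiled at 0 h, which gives 14 groups of 3 arrays, and all cells grew in medium with glutamine and 1% serum. For the BMI1-shRNA line the labels of the 0 h arrays conflict, without doxycycline by title and with it by another field. Their source name gives the control line, so the labels also disagree on the line. The arrays were used as titled. Each hairpin is present in a single line, which the labels do not describe as a clone or a pool, and replicates are numbered without saying that they were separate cultures. The p-values therefore measure only the spread between arrays.

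Proteins that enter the secretory pathway are threaded into the ER through the SEC61 channel, lose their signal peptide, and are folded by chaperones such as BiP (HSPA5) and by disulfide isomerases. Misfolded proteins are recognised by lectins and sent back to the cytosol for destruction, a route called ER-associated degradation. When unfolded proteins accumulate, the sensors IRE1 (ERN1), ATF6 and PERK (EIF2AK3) start the unfolded protein response. IRE1 splices the mRNA of the transcription factor XBP1, which plasma cells need to secrete antibody, and XBP1 and ATF6 act on ER stress elements in promoters.

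Promoters are shown here because XBP1 and ATF6 are known to act through such elements. RefSeq promoters of 300 bases (250 before to 50 after the start, build GRCh38.p14) were found for 39 of the 42 genes, PDIA3, DERL1 and SPCS1 being the others. Both strands were searched for the ER stress element ERSE (CCAAT, then 9 bases of any kind, then CCACG), for ERSE-II (ATTGG, then 1 base of any kind, then CCACG) and for the unfolded protein response element UPRE (TGACGTGG). ERSE was found in 7 of 39 member promoters (17.9%) and in 22 of 27305 RefSeq promoters (0.0806%). ERSE-II was in 3 member promoters (7.69%), against 15 of all promoters (0.0549%), and the UPRE in 2 (5.13%), against 217 of all promoters (0.795%). At least 1 of the motifs was present in 11 member promoters (28.2%), against 253 of all promoters (0.927%). These were the promoters of XBP1, HSPA5, HSP90B1, CALR, CANX, HYOU1, SDF2L1, CRELD2, ERO1B, HERPUD1 and SEC62, and in HYOU1 the UPRE overlaps one of its ERSE-II matches. Printed 5' to 3' on the gene's strand, with the fixed letters of a match in capitals, are the windows of HSPA5 (chr9:125241294-125241593, minus strand), HERPUD1 (chr16:56931892-56932191, plus strand) and XBP1 (chr22:28800520-28800819, minus strand), which hold a match, and those of PDIA4 (chr7:149028441-149028740, minus strand) and DNAJB9 (chr7:108569624-108569923, plus strand), which hold none and had the largest called fall and rise when the doxycycline effects of the lines were compared.
HSPA5: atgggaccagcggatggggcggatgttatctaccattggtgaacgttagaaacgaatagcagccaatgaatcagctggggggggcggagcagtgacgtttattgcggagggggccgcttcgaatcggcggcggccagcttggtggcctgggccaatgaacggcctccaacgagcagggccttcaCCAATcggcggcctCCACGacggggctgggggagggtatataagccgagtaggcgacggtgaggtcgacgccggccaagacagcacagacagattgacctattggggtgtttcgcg
HERPUD1: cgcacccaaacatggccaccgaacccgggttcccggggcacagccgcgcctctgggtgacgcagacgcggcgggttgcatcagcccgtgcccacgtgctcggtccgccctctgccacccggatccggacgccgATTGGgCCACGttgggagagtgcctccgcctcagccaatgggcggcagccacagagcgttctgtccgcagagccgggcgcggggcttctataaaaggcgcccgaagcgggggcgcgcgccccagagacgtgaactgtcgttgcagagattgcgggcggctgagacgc
XBP1: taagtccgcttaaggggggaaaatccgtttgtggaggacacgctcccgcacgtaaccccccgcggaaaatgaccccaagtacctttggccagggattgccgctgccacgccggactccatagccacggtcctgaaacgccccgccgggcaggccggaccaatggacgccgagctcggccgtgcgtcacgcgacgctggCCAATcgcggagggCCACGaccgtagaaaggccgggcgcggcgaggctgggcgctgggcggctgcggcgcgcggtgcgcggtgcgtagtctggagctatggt
PDIA4: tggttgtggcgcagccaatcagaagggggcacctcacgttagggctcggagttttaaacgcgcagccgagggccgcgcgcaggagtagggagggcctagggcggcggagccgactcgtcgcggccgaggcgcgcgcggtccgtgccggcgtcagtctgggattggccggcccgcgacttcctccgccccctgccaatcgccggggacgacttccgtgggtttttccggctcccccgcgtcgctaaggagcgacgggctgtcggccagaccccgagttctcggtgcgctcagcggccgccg
DNAJB9: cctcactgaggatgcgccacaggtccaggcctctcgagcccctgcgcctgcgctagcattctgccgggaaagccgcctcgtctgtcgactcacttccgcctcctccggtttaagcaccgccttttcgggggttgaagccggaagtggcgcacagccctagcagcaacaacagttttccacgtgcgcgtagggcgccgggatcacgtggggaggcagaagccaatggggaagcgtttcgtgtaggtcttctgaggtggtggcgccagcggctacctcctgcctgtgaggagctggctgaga
A match is a string of letters and not a measured binding site, and a window without one says only that these letters are not in it. Because the genes were listed by their function in this pathway, the shares of promoters with a motif are a description and were not tested.

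The targeted gene followed the labels. BMI1 had a lowest, median and highest signal of 139.8, 168.8 and 234 on the 9 dosed arrays of the BMI1-shRNA line, against 758.3, 980.1 and 1128.8 on its 9 undosed arrays, with no overlap. It fell by 2.43 ± 0.06 (SE) on the log2 scale (limma adjusted p = 1.08e-28), against 0.03 ± 0.06 for doxycycline in the control-shRNA line. Between the undosed lines BMI1 was lower in the BMI1-shRNA line (-0.32 ± 0.06, limma adjusted p = 1.36e-05). Its median was 980.1 there and 1229.3 in the control-shRNA line, and the ranges overlap. The BMI1 probe set is also annotated to the readthrough transcript COMMD3-BMI1. Of 8 plasma cell markers, SDC1, CD38, PRDM1, IRF4, TNFRSF17 and MZB1 read at or above the array median on 42 of 42 arrays, while CD27 did so on 6 and SLAMF7 on 0. This measure does not single out plasma cell markers. Markers of other cell types, PAX5, COL1A1, EPCAM, KRT8, KRT18 and HBB, also did so on 42 arrays, and MS4A1 on 28. CD38 differed between the lines, with a median signal of 507.5 in the BMI1-shRNA line and 232 in the control-shRNA line, as did the B cell markers MS4A1, with 107.3 and 17.2, and BCL6, with 41.4 and 15.7. The B cell marker PAX5 had a median of 35.9 in the BMI1-shRNA line and 38.6 in the control-shRNA line. The monocyte markers CD14, LYZ and CSF1R had medians of 2.7, 3.6 and 24.3, with CSF1R at or above the array median on 30 of 42 arrays. The T cell markers CD3D, CD3E and CD2 had medians of 5.5, 16.35 and 11.95. The epithelial markers EPCAM and KRT18 read 2481 or more and 1416.5 or more on every array, and KRT8 had a median of 43.25. Medians were 117.95, 14.9 and 20.45 for the fibroblast markers COL1A1, COL1A2 and DCN, and 32.1 for the erythroid marker HBB. The 3-prime over 5-prime ratio of the GAPDH probe sets, which rises as RNA degrades, was 0.935 ± 0.0251 in the BMI1-shRNA line and 1.03 ± 0.0401 in the control-shRNA line (SD, n = 21 each).

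Read by the brightest probe set of each gene, few members changed with doxycycline in the BMI1-shRNA line. Among them 1 changed by much more than the rest. PDIA4, a disulfide isomerase of the ER that works in complexes with BiP, fell 1.78-fold. Smaller changes were called for 3 genes that rose in the sensor and degradation groups (ERN1, EDEM2, EDEM3), for the cochaperone DNAJB9, which rose, and for the degradation genes DERL1 and EDEM1, which fell. The general ER chaperones, the translocon, TRAP and the signal peptidase gave no call on these probe sets. Other probe sets of DERL1 and HSPA5 fell more than the brightest, to -0.67 and -0.52, as given with the probe sets of each gene. In all, 7 of 39 measured genes were called over the mean of the 3 times, 4 up and 3 down (17.9%), where 8.30% of all 14705 genes were called, 3.93% up and 4.37% down, and 13.6% of the 8311 genes that passed a stricter brightness filter, as 38 of the 39 members did. The median change of the members was -0.04 on the log2(signal + 5.4) scale on which all changes are given, beside 0.02 over all genes. A probe set's signal cannot tell fewer cells that hold a transcript from less of it per cell.

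**Figure D1:**
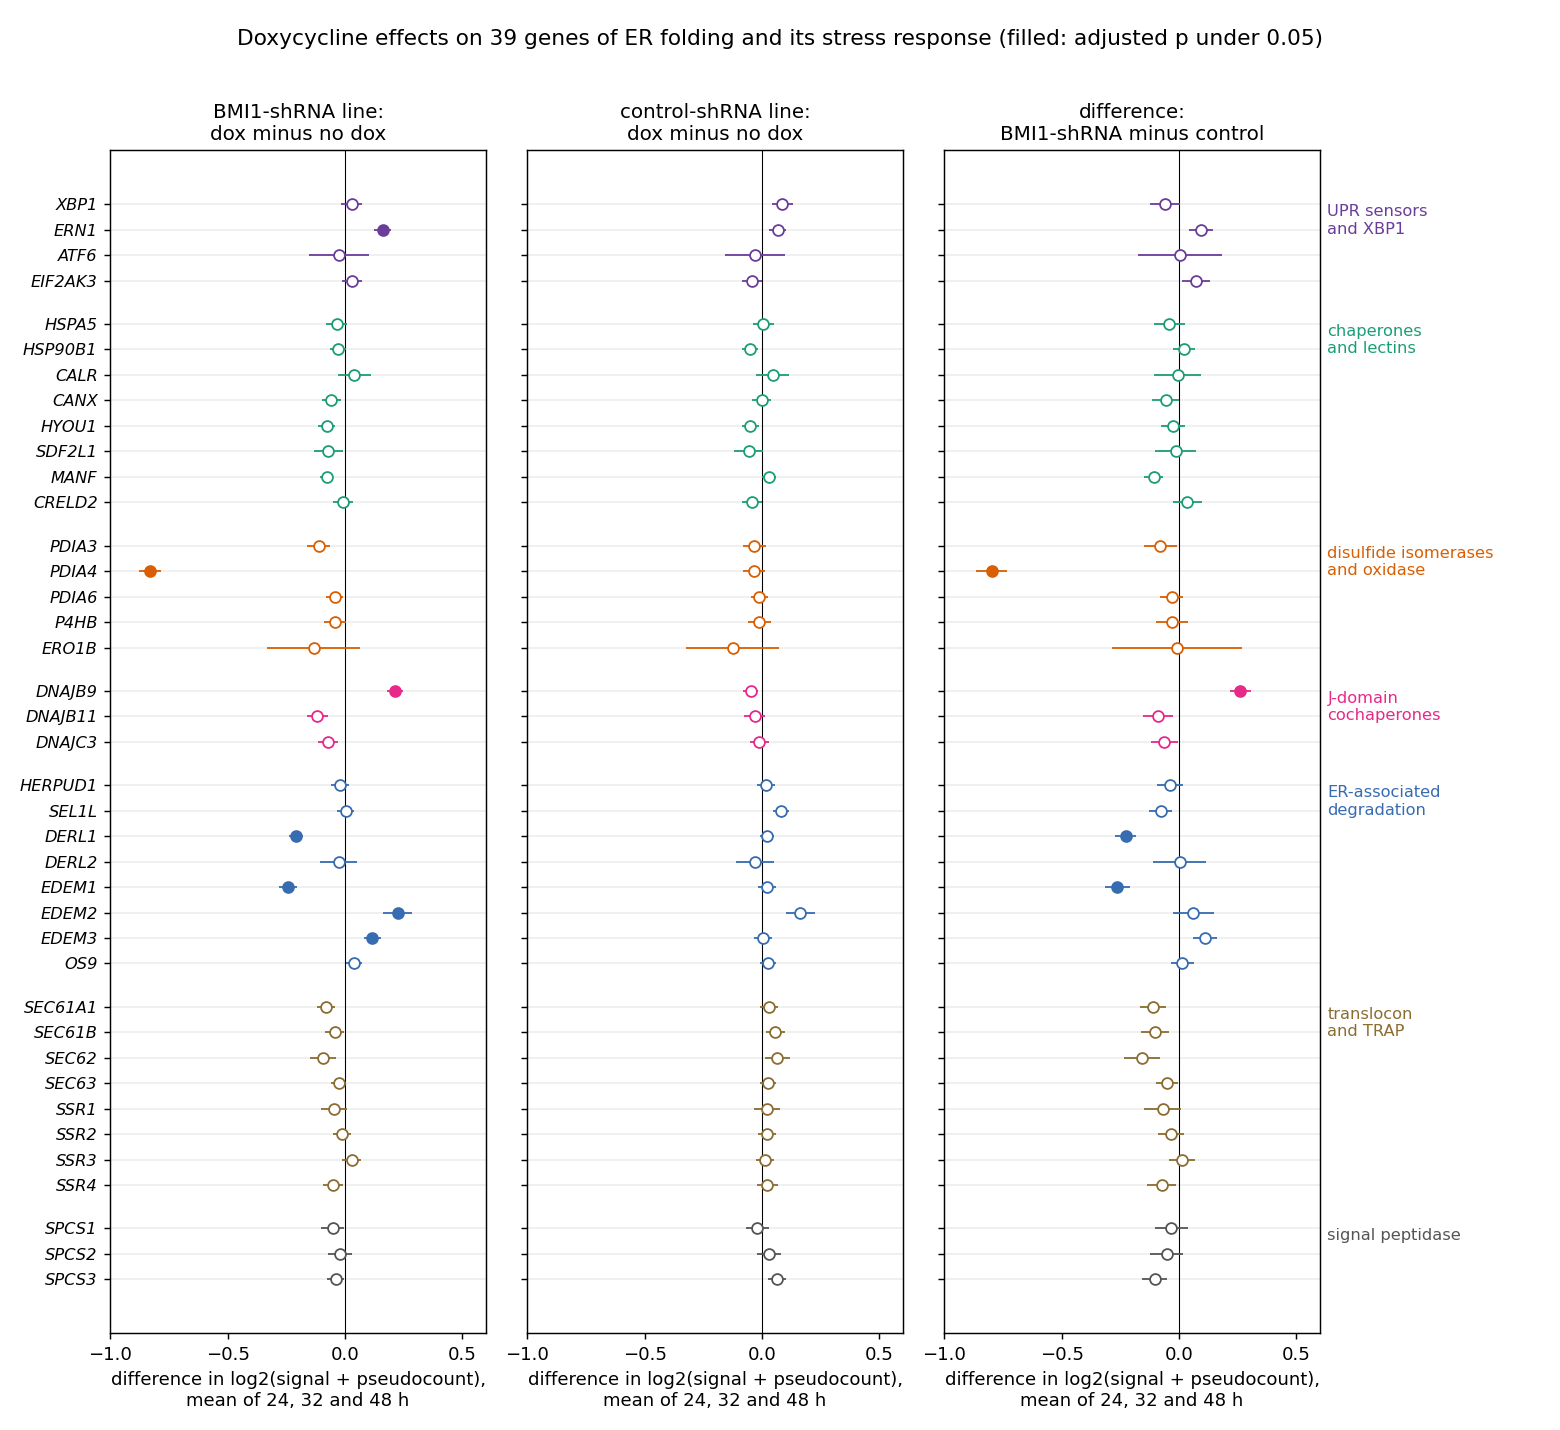
Doxycycline effect on the 39 measured genes in the BMI1-shRNA line (left), in the control-shRNA line (middle) and the difference between them (right). Points are log2 differences over the mean of 24, 32 and 48 h with their standard error, coloured by role, and filled where the limma adjusted p is under 0.05: 7 genes on the left, 0 in the middle and 4 on the right, with PDIA4 at -0.83, -0.03 and -0.80.

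Among the sensors, ERN1, the kinase and nuclease IRE1, had a lowest, median and highest signal of 473.9, 513.7 and 594.3 on dosed arrays, against 442, 458.6 and 515.4 on undosed arrays of the BMI1-shRNA line. The ranges overlap, and the dosed arrays were higher by 0.16 ± 0.04 (adjusted p = 0.0018). XBP1 read 1854.2, 2298.3 and 2715.7 on dosed arrays, against 1987.5, 2248.6 and 2493 on undosed arrays, a difference of 0.03 ± 0.05 (adjusted p = 0.826). The single retained XBP1 probe set gives 1 value per array and does not separate the spliced from the unspliced mRNA. ATF6, the sensor that is itself cut to release a transcription factor, differed by -0.02 ± 0.13, and EIF2AK3, the kinase PERK that slows translation, by 0.03 ± 0.04, and neither was called.

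No chaperone or lectin was called, and 7 of the 8 had small negative values. HSPA5, or BiP, the ER's main Hsp70 chaperone, read 7139.2, 8371 and 9667.5 on dosed arrays, against 7697.5, 8267.6 and 9349.9 on undosed arrays, and the ranges overlap almost wholly (-0.04 ± 0.05, adjusted p = 0.757). The other members of this group lay between -0.08 for MANF, a secreted ER stress factor, and 0.04 for CALR, the lectin chaperone calreticulin. HSP90B1 (the ER Hsp90), CANX (the membrane lectin calnexin), HYOU1 (a nucleotide exchange factor of BiP), SDF2L1 and CRELD2 lay in that range.

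PDIA4 is on chromosome 7 (chr7:149003051-149028505). At 24 h its signals were 1012.2, 1120.4 and 1119.3 with doxycycline, against 1583.7, 1821.1 and 2018.4 without it. At 32 h they were 1094, 1033.2 and 1005 with doxycycline, against 1616.6, 1951 and 1690.5 without it. At 48 h they were 844.9, 887.5 and 720.9 with doxycycline, against 1663.7, 1604.5 and 1707.5 without it. Every dosed array lay below every undosed array of the line, and the 48 h arrays were the lowest. Over the mean of times PDIA4 fell by 0.83 ± 0.05 on the log2 scale (adjusted p = 1.34e-16). The other isomerases and the oxidase did not follow it: PDIA3, which works with calnexin and calreticulin, differed by -0.11 ± 0.05 (adjusted p = 0.198), PDIA6 by -0.04, and P4HB by -0.04, and none of these was called, nor was the oxidase gene ERO1B, which was dim on dosed and undosed arrays of this line.

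DNAJB9 is a J-domain cochaperone that holds IRE1 in check through BiP and is itself a known XBP1 target. Its lowest, median and highest signals were 919.3, 1044.3 and 1248.7 on dosed arrays, against 851.6, 900.7 and 934.9 on undosed arrays, and only the lowest dosed array, at 24 h, lay inside the undosed range. It rose by 0.21 ± 0.03 (adjusted p = 7.11e-06). DNAJB11 and DNAJC3, the other BiP cochaperones of the group, differed by -0.12 and -0.07 and were not called.

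In ER-associated degradation 4 of 8 measured genes were called, 2 in each direction, where 8.30% of all genes were. Of those past the stricter brightness filter 13.6% were called. DERL1, a membrane protein of the export channel for misfolded proteins, read 1858.9, 1944.6 and 2052.5 on dosed arrays, against 2209, 2247.1 and 2375.3 on undosed arrays, with no overlap, and fell by 0.21 ± 0.03 (adjusted p = 3.88e-06). EDEM1, a mannosidase-like protein that marks misfolded glycoproteins for disposal, read 230.5, 263.1 and 275 on dosed arrays, against 263.7, 301.4 and 349.5 on undosed arrays, and fell by 0.24 ± 0.04 (adjusted p = 8.12e-06). Within a single time its dosed and undosed arrays overlap only at 24 h. EDEM2, which starts the mannose trimming, moved the other way: it read 201.7, 217.5 and 255.6 on dosed arrays, against 163.6, 193.3 and 225.8 on undosed arrays, and rose by 0.22 ± 0.06 (adjusted p = 0.0165). EDEM3, a further trimming mannosidase, read 1493.4, 1572.1 and 1771.9 on dosed arrays, against 1395.1, 1460.9 and 1620.7 on undosed arrays, and rose by 0.12 ± 0.04 (adjusted p = 0.0416). Both ranges overlap, and these are the calls nearest the threshold. EDEM2 has an adjusted p of 0.0508 without the second undosed 48 h array, and EDEM3 loses its call without any of 14 of the 18 arrays, its adjusted p reaching 0.106, and also when all probe sets are kept (0.0541) or the intensity trend is left out (0.0609). HERPUD1, SEL1L, DERL2 and OS9 lay between -0.03 and 0.04.

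The translocon and TRAP genes, 8 measured, lay between -0.09 for SEC62 and 0.03 for SSR3, 7 of them below 0. The signal peptidase subunits SPCS1, SPCS2 and SPCS3 lay between -0.05 and -0.02. None of these 11 genes was called.

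**Figure D2:**
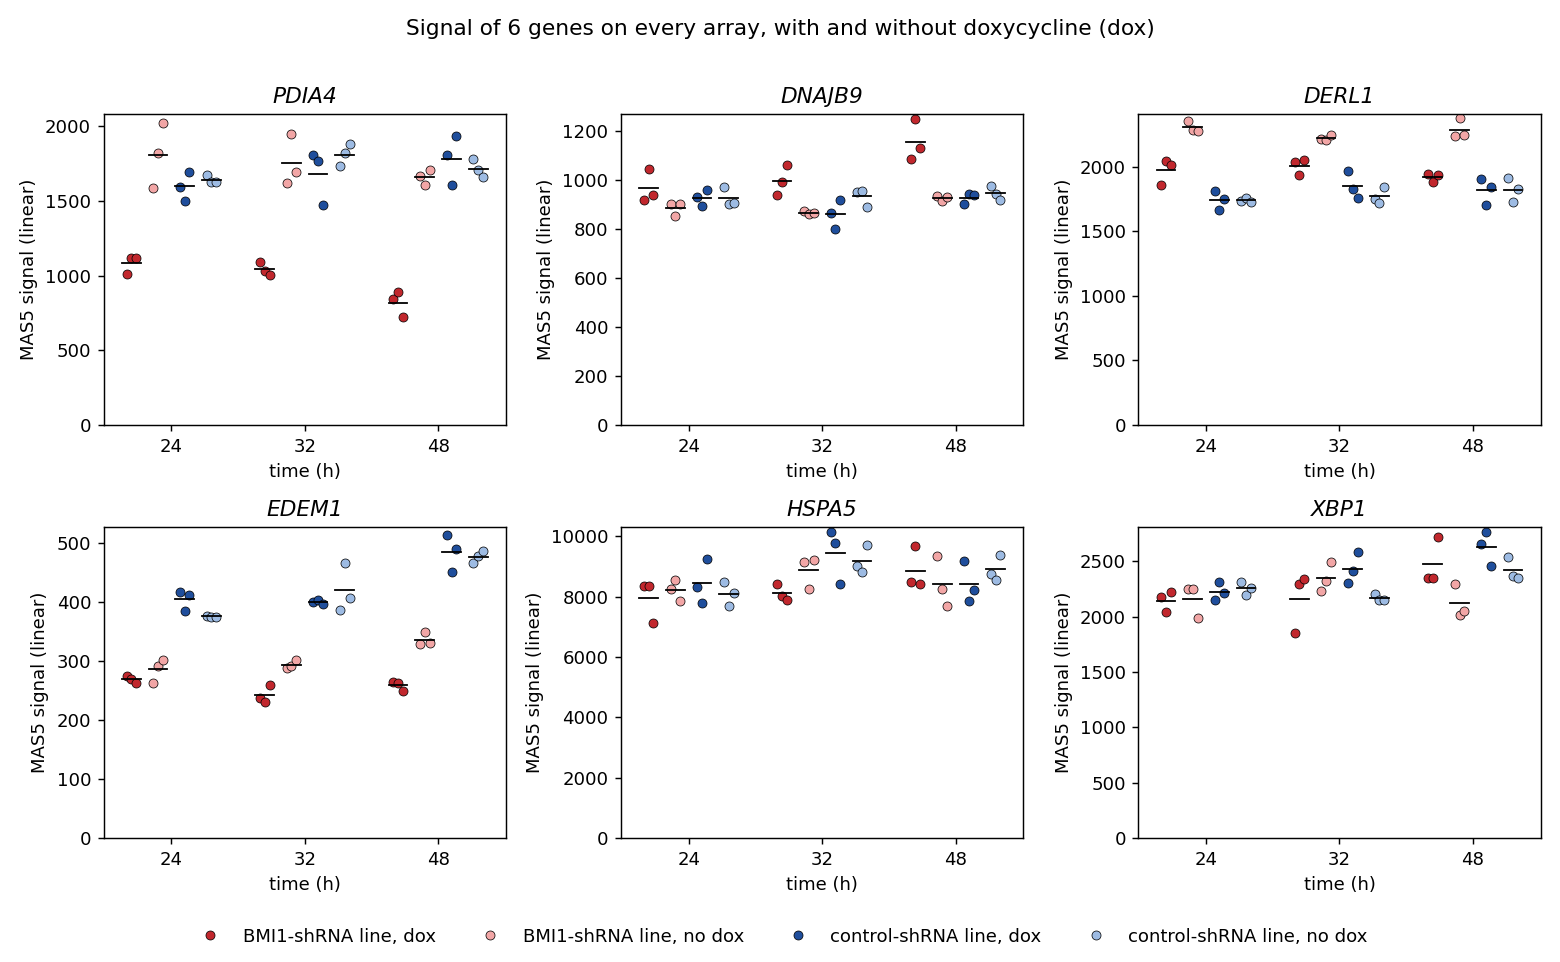
MAS5 signal of 6 genes (linear scale from 0) on every array at 24, 32 and 48 h; each point is 1 array and each bar the mean of 3. In the PDIA4 panel the dosed arrays of the BMI1-shRNA line lie between 720.9 and 1120.4, below all others, whereas those of HSPA5 and XBP1 overlap the other groups at most times.

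The 11 measured genes with a motif in their promoter window gave no call, where 8.30% of all genes were called, a share at which about 1 of 11 genes would be. Other probe sets of HSPA5 and SEC62, both with a motif, were called down, as given with the probe sets of each gene. Of the 25 measured genes whose window held no motif, 4 rose and 2 fell, while DERL1, which fell, and PDIA3 and SPCS1, not called, had no window searched. The call rates with and without a motif were not tested against each other.

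Several genes were read by more than 1 probe set, and the probe sets of a gene did not always give the same call. Across the 98 retained probe sets of the members, 13 were called, in 10 genes, 4 up and 9 down (13.3%). Of the 35232 retained probe sets 5.83% were called, a share that includes dim probe sets, and none is given for bright ones. Both PDIA4 probe sets fell, by 0.83 and by 0.69 on the log2 scale, and the second read 233.3, 308.6 and 349.2 on dosed arrays, against 413.1, 487.6 and 565.2 on undosed arrays. DERL1 fell more on a pair of other probe sets than on its brightest. One read 776, 920.8 and 1046.2 on dosed arrays, against 1244.1, 1302.7 and 1454.1 on undosed arrays (-0.55 ± 0.04), and the other 502.1, 609.2 and 697, against 857.6, 983.4 and 1055.3 (-0.67 ± 0.04). Neither pair of ranges overlaps. Its remaining probe set, with a mean signal of 16.8, gave 0.61 ± 0.23 and was not called.

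HSPA5 is such a gene. Its second probe set, with a mean signal of 184 over all arrays, read 106.7, 131.7 and 148 on dosed arrays, against 160.7, 187.9 and 239.7 on undosed arrays, with no overlap, and fell by 0.52 ± 0.07 (adjusted p = 9.83e-07 over probe sets). That probe set read 164.3, 186.8 and 246.4 with doxycycline in the control-shRNA line, against 153.3, 190.3 and 231.5 without it there, and the difference between the lines' effects was -0.44 ± 0.10 (adjusted p = 0.00567). Which HSPA5 transcript it reads was not tested. Single probe sets of SSR3 (-0.24) and SEC62 (-0.18) were called down where the brightest of their gene was not. DNAJB9's other probe sets gave 0.18 and 0.10 and ERN1's 0.05 and 0.26, all of the same sign as the brightest and none called. EDEM1 and EDEM2 were read by 1 probe set each. The brightest probe sets of HSP90B1, CALR, PDIA6, OS9 and SPCS3 are of a type that can bind related sequences.

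**Figure D3:**
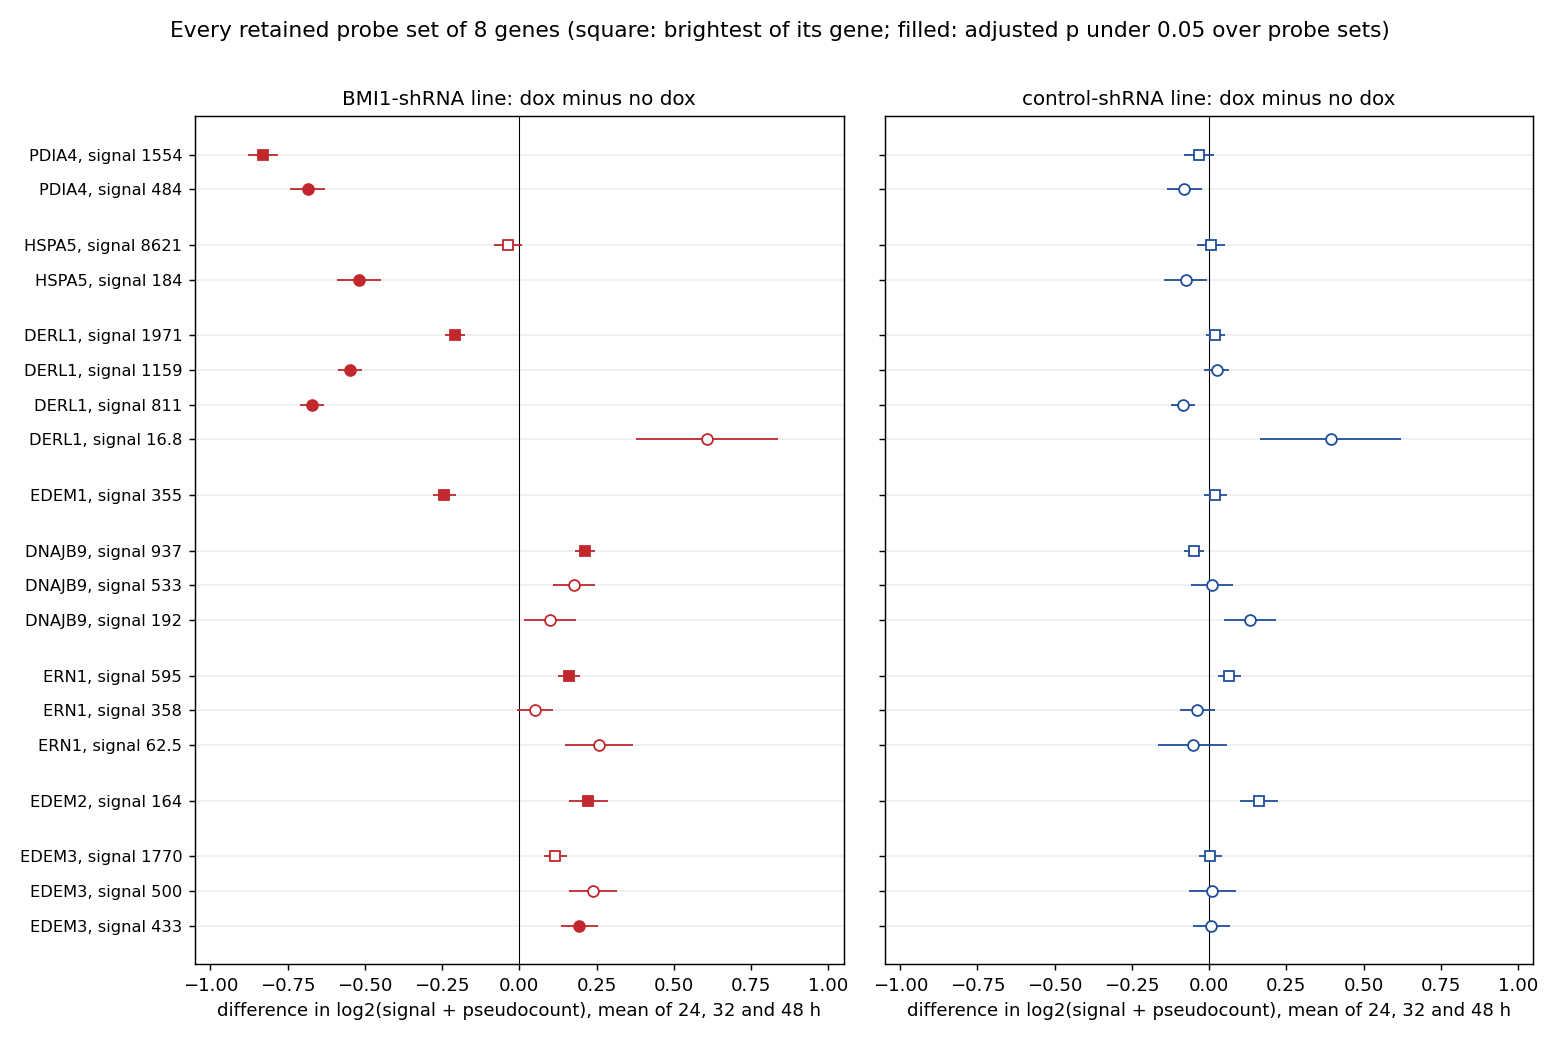
Log2 difference between dosed and undosed arrays, mean of 24, 32 and 48 h with its standard error, for every retained probe set of 8 genes in the BMI1-shRNA line (left) and the control-shRNA line (right), each labelled with its mean signal. Both PDIA4 probe sets and 3 of 4 DERL1 probe sets fell in the BMI1-shRNA line, while of the HSPA5 probe sets only the one with a mean signal of 184 did, by 0.52 on the log2 scale; no probe set on the right was called.

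By time, the calls in the BMI1-shRNA line grew from 2 genes at 24 h to 5 at 48 h. At 24 h PDIA4 (-0.73 ± 0.08) and DERL1 (-0.23 ± 0.05) were called, 2 of 39, where 1.62% of all genes were. At 32 h 4 were called, against 2.20% of all genes: PDIA4 (-0.74 ± 0.08), DNAJB9 (0.20 ± 0.06), EDEM1 (-0.28 ± 0.06) and EDEM2 (0.45 ± 0.11). At 48 h 5 were called, against 5.36% of all genes: PDIA4 (-1.02 ± 0.08), EDEM1 (-0.37 ± 0.06), DNAJB9 (0.31 ± 0.06), DERL1 (-0.25 ± 0.05) and ERN1 (0.21 ± 0.06). The 48 h signals of DNAJB9 were 1085.8, 1248.7 and 1131.3 with doxycycline, against 934.9, 915.2 and 930.5 without it. Those of EDEM1 were 264, 263.8 and 250.3 with doxycycline, against 328.9, 349.5 and 331.1 without it. In both the 3 dosed arrays stood clear of the 3 undosed ones. When the effect at 24 h was subtracted from that at 48 h, 0 of 39 genes were called by limma (0.490% of all genes were) and 8 had an unadjusted p under 0.05, EDEM1 with -0.28 (adjusted p = 0.202) and PDIA4 with -0.29 (adjusted p = 0.361) leading them. No change of the effect with time was thus called for any member. At 32 h the call of DNAJB9 is lost without any of 5 of the 6 arrays, and those of EDEM1 and EDEM2 without any of 3. Averaging probe sets turns DERL1 at 24 h to 0.0154 and ends the calls of DNAJB9 at 32 and 48 h and of DERL1 at 48 h (-0.27, adjusted p = 0.149). DERL1 loses its 24 h call without either of 2 arrays and ERN1 its 48 h call without any of 4.

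**Figure D4:**
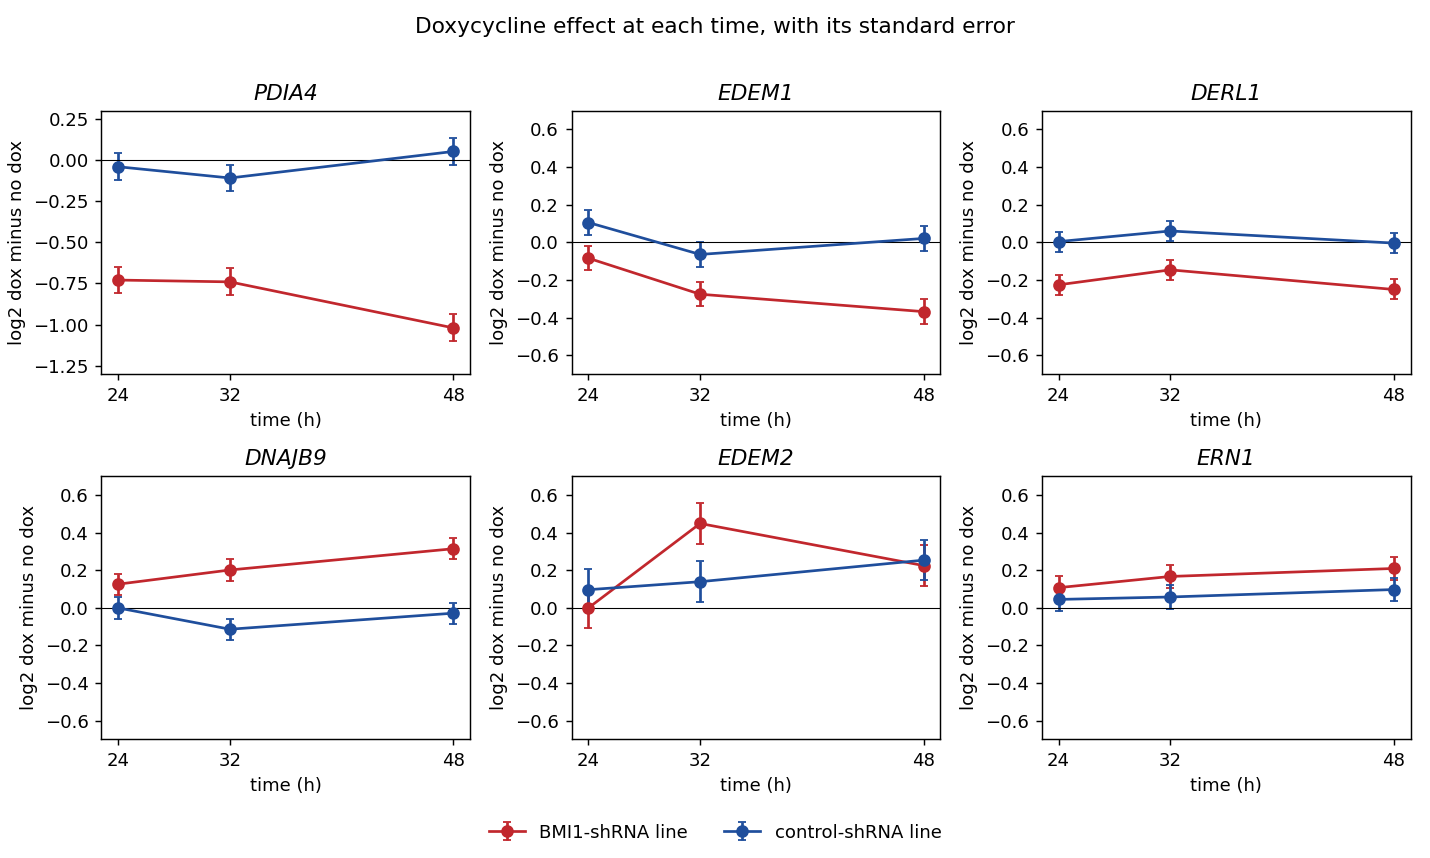
Log2 difference between dosed and undosed arrays at 24, 32 and 48 h with its standard error (3 arrays a group) for 6 genes, in the BMI1-shRNA line (red) and the control-shRNA line (blue). PDIA4 runs from -0.73 at 24 h to -1.02 at 48 h in the BMI1-shRNA line and stays between -0.11 and 0.05 in the control-shRNA line; EDEM2 was at 0.22 and 0.25 in them at 48 h.

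Doxycycline itself was checked in the control-shRNA line, where 0 of 39 genes were called by limma over the mean of times (0.129% of all genes were) and 2 had an unadjusted p under 0.05, EDEM2 with 0.16 ± 0.06 and SEL1L with 0.08 ± 0.04. At 24, 32 and 48 h it was also 0 of 39, with 2 genes at an unadjusted p under 0.05 each time, and with 0.0408%, 0.0340% and 0.0476% of all genes called. PDIA4 had a lowest, median and highest signal of 1475.8, 1696.8 and 1936.3 with doxycycline, against 1624, 1705.1 and 1878.1 without it, and HSPA5 differed by 0.01 ± 0.05. Of the 98 probe sets 0 were called, where 0.0710% of all probe sets were.

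The test of the difference between the lines' doxycycline effects was called for 4 of the 7 genes above, 1 up and 3 down, or 10.3% of the 39, where 3.80% of all genes were called, 1.20% up and 2.60% down, and 6.35% of those past the stricter brightness filter. PDIA4 differed by -0.80 ± 0.07 (adjusted p = 2.16e-11), EDEM1 by -0.26 ± 0.05 (adjusted p = 0.00108), DERL1 by -0.23 ± 0.04 (adjusted p = 0.000542) and DNAJB9 by 0.26 ± 0.05 (adjusted p = 0.000157). ERN1 (0.09 ± 0.05, adjusted p = 0.422), EDEM3 (0.11 ± 0.05, adjusted p = 0.327) and EDEM2 (0.06 ± 0.09, adjusted p = 0.842) were not called. EDEM2 had stood at 0.16 ± 0.06 under doxycycline in the control-shRNA line, also without a call. XBP1 (-0.06 ± 0.06), ATF6 (0.00 ± 0.18), EIF2AK3 (0.07 ± 0.06) and HSPA5 (-0.04 ± 0.06) were not called either. Over probe sets 8 of 98 were called, in 5 genes, where 2.53% of all probe sets were, again with no share for bright ones. The call of DNAJB9 is lost when a gene's probe sets are averaged (0.13, adjusted p = 0.42), as it is at 32 and 48 h alone.

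At single times the difference was called for PDIA4 at 24 h (-0.69 ± 0.12, 0.374% of all genes called). At 32 h it was called for PDIA4 (-0.63 ± 0.12) and DNAJB9 (0.32 ± 0.08), with 0.945% of all genes called. At 48 h it was called for PDIA4 (-1.07 ± 0.12), EDEM1 (-0.39 ± 0.09) and DNAJB9 (0.34 ± 0.08), with 2.56% of all genes called. PDIA4 is the member called at all 3 times. The DNAJB9 call at 32 h is lost without any of 9 of the 12 arrays, and that at 48 h without the second dosed array of the BMI1-shRNA line (adjusted p = 0.0502).

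More of these genes were called between the undosed lines than for doxycycline. Of the 39 genes 24 were called between the undosed BMI1-shRNA line and the undosed control-shRNA line, 6 higher and 18 lower (61.5%), where 43.9% of all genes were called, 21.8% higher and 22.1% lower, and 60.0% of the genes past the stricter brightness filter, a share close to the members' own. Without ERO1B the count is 23 of 38. Of the 98 probe sets 57 were called, in 28 genes (35.1% of all probe sets were). That share includes dim probe sets, and none is given for bright ones, so no excess is read from it. The undosed arrays of the BMI1-shRNA line also serve the doxycycline comparison, so the comparisons share them. BMI1 itself, the GAPDH ratio and the markers CD38, MS4A1 and BCL6, all given above, also differ between the undosed lines or the lines as a whole. Their part in these differences was not tested. With 1 line per hairpin, the hairpin and the line cannot be told apart.

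All 3 sensors were lower in the BMI1-shRNA line. ERN1 read 442, 458.6 and 515.4 there, against 641.9, 675 and 833.9 in the control-shRNA line, with no overlap (-0.57 ± 0.04, adjusted p = 1.5e-16). EIF2AK3 read 365.1, 440.8 and 473, against 486.6, 541.6 and 596.5 in the control-shRNA line, also without overlap (-0.34 ± 0.04). ATF6 read 190.2, 289.2 and 367.2, against 313, 534.9 and 656.2 in the control-shRNA line, where the ranges overlap (-0.90 ± 0.13), and its other 3 probe sets gave smaller values of the same sign, -0.23, -0.19 and -0.34. XBP1 was not called (-0.05 ± 0.05).

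ER-associated degradation was the group called in full, with 8 of 8 genes, 5 higher and 3 lower. Of all genes 43.9% were called, and 60.0% of those past the stricter brightness filter. DERL2, a paralog of DERL1 in the same export machinery, read 455.7, 529.3 and 574.1 in the BMI1-shRNA line, against 146.9, 238.5 and 266.9 in the control-shRNA line (1.19 ± 0.08, adjusted p = 9.82e-16). EDEM2 read 163.6, 193.3 and 225.8, against 88.1, 117.2 and 125.6 in the control-shRNA line (0.73 ± 0.06). DERL1 was higher by 0.35, HERPUD1, which helps assemble the ubiquitin ligase, by 0.19 and OS9, a lectin of that ligase, by 0.15. EDEM3 (-0.48) and EDEM1 (-0.46) were lower, as was SEL1L, the scaffold of the ligase (-0.18). Members of 1 family thus differed in opposite directions, EDEM2 against EDEM1 and EDEM3. The arrays of the 2 lines did not overlap for DERL1, DERL2, EDEM1, EDEM2 and EDEM3. Overlap was listed for the members and not for all genes, so this is not read as particular to the group.

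Of the translocon and TRAP genes 7 of 8 were called lower in the BMI1-shRNA line on their brightest probe sets. Of all genes 22.1% were called lower, and 60.0% of those past the stricter brightness filter were called in either direction. SEC62, which helps short secretory proteins enter, read 2104.9, 2321.5 and 2623.3 there, against 2836, 3217.2 and 3653.7 in the control-shRNA line (-0.46 ± 0.05), with no overlap. SEC63, its partner and BiP's dock at the channel, was lower on its brightest probe set (-0.31), with another called at 0.23 in the opposite direction. SSR3, of TRAP, was lower on its brightest probe set (-0.25) and on the other 3 (-0.32, -0.33 and -1.02). SEC61B (-0.21), SSR2 (-0.17), SSR4 (-0.17) and SSR1 (-0.14) were also lower, and SEC61A1, the channel itself, was not called (0.09 ± 0.04, adjusted p = 0.0595). Taken at 24 h alone, SEC61B, SSR2 and SSR4 lose their calls, and SSR1 loses its call at 24, 32 and 48 h alone. None of the 3 signal peptidase genes was called.

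Of the chaperones, isomerases and cochaperones, 6 of 16 were called between the lines. Of all genes 43.9% were, and 60.0% of those past the stricter brightness filter. The 6 were 2 of 8 chaperones and lectins, 2 of 5 isomerases and oxidase and 2 of 3 J-domain cochaperones. Among the 5 isomerases and oxidase, ERO1B is 1 of the 2 called. HSP90B1 was higher (0.09) and MANF lower (-0.11) among the 8 chaperones and lectins, and HSPA5 was not called (-0.04 ± 0.05). P4HB, the classical disulfide isomerase, was lower (-0.14). ERO1B, which reoxidises the isomerases, read 4.8, 9.2 and 23.2 in the BMI1-shRNA line, against 33.9, 50.1 and 64.1 in the control-shRNA line, with no overlap. It entered the test through the control-shRNA line, and its signals in the BMI1-shRNA line are mostly below the array medians. Its log2 difference follows the pseudocount (-2.28 with 1 and -1.28 with 18.8). A gene kept through 1 line tends to read higher there, so its size, direction and lack of overlap are not read as results. DNAJC3, which binds unfolded chains for BiP, was lower without overlap (-0.44), and DNAJB11 was lower with overlap (-0.21). PDIA4 was not called on its brightest probe set (0.01 ± 0.05, adjusted p = 0.88), with the second called at -0.22. HSP90B1 loses its call without any of 8 arrays and SSR1 without any of 9, with adjusted p reaching 0.074 and 0.124. Averaging a gene's probe sets ends the calls of HSP90B1, HERPUD1 and SEL1L, and keeping all probe sets or leaving out the intensity trend ends that of SSR1. Taken at single times, HSP90B1 loses its call at 24, 32 and 48 h, MANF at 32 and 48 h, and DNAJB11 at 32 h. P4HB and OS9 lose theirs at 24 and 32 h, HERPUD1 at 48 h and SEL1L at 24 h.

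**Figure D5:**
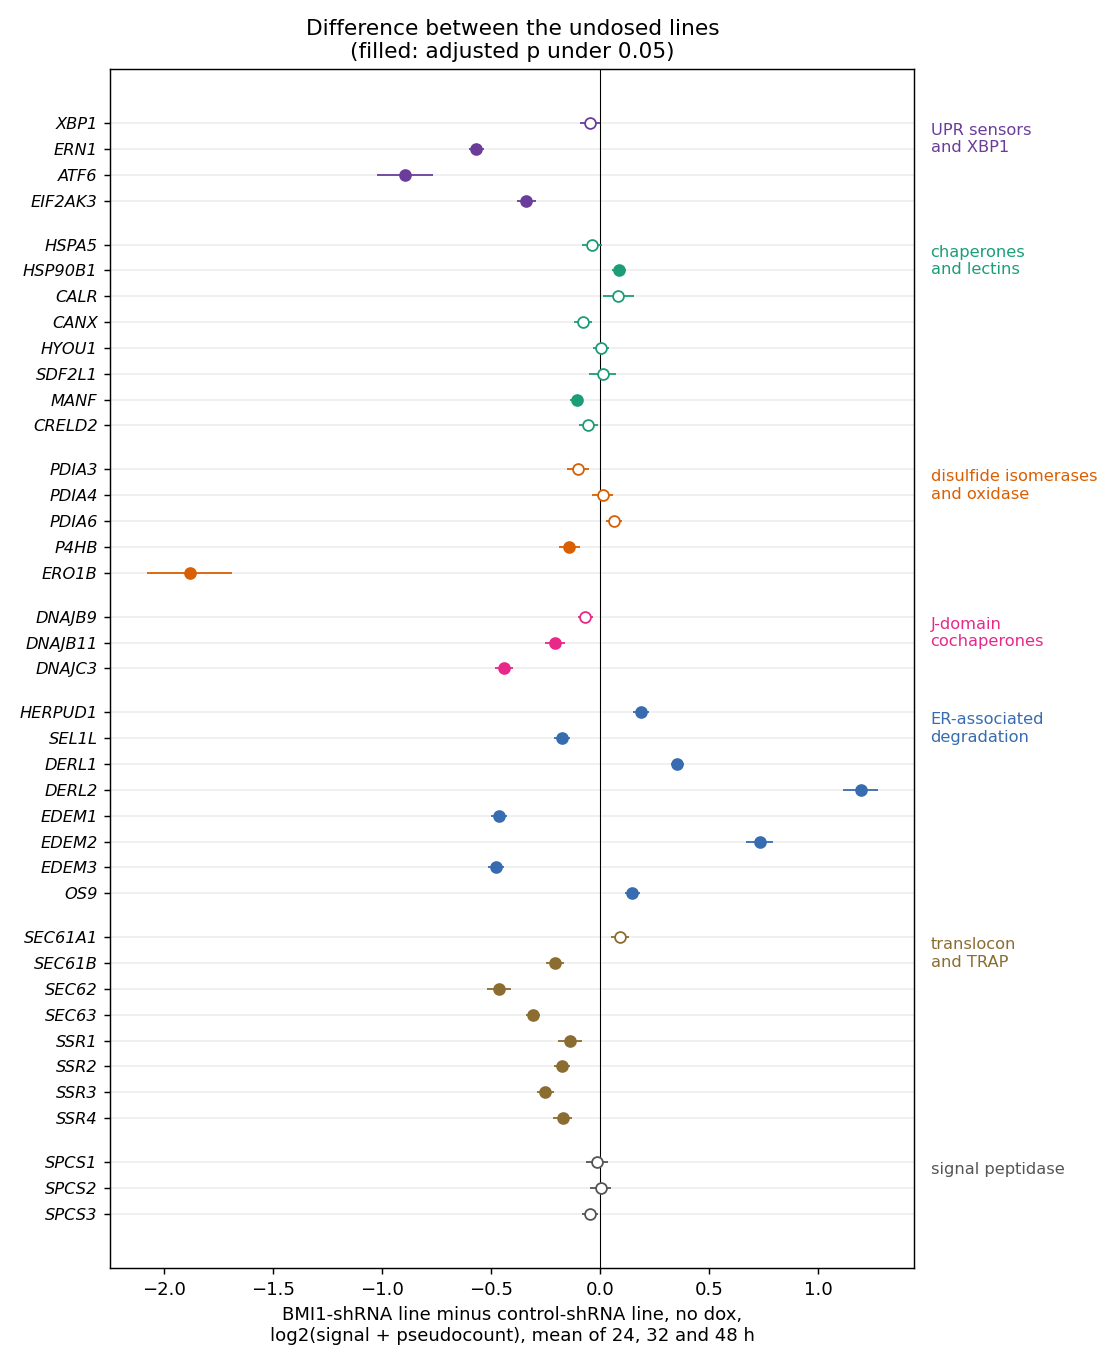
Difference between the undosed BMI1-shRNA line and the undosed control-shRNA line for the 39 genes, as log2 values over the mean of 24, 32 and 48 h with their standard error, coloured by role and filled where the limma adjusted p is under 0.05 (24 genes). The translocon and TRAP genes lie to the left of 0 except SEC61A1, and the degradation genes spread from -0.48 to 1.19. ERO1B lies farthest left, at a size that follows the pseudocount.

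Time in culture without doxycycline changed few of these genes. Between 48 and 24 h, 0 of 39 were called by limma in the BMI1-shRNA line (0.952% of all genes were, and 3 members had an unadjusted p under 0.05) and 1 in the control-shRNA line (0.843% of all genes). That gene was EDEM1, with 467.1, 478.3 and 486.6 at 48 h, against 376.7, 375.6 and 375.6 at 24 h, a rise by 0.34 ± 0.06 (adjusted p = 0.00357). In the BMI1-shRNA line EDEM1 read 328.9, 349.5 and 331.1 at 48 h, against 263.7, 292.7 and 302.8 at 24 h (0.23 ± 0.06, adjusted p = 0.0695). The dosed arrays of that line read 264, 263.8 and 250.3 at 48 h, against 275, 270.1 and 263.1 at 24 h, and these overlap.

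Between 24 and 0 h, 2 of 39 genes fell in the control-shRNA line (1.41% of all genes were called): SPCS3, a signal peptidase subunit, by 0.31 ± 0.07 on the log2 scale and HSP90B1 by 0.23 ± 0.06. SPCS3 read 1638.5, 1612.8 and 1559.1 at 24 h, against 2115.8, 1981.6 and 1858.7 at 0 h, and HSP90B1 read 4027.7, 3788 and 3905, against 4668.7, 4403 and 4664.7. Neither gene's arrays overlap between the times. In the BMI1-shRNA line, whose 0 h labels conflict, SPCS3 (-0.26 ± 0.07) and CRELD2 (-0.28 ± 0.08) were called (1.73% of all genes). CRELD2, an ER chaperone of the stress response, read 1457.8, 1261.5 and 1482.2 at 24 h, against 1668, 1817.6 and 1607.9 at 0 h. These calls are lost without single arrays, SPCS3 in the control-shRNA line without either of 2 arrays, HSP90B1 without any of 4, SPCS3 in the BMI1-shRNA line without any of 5 and CRELD2 without any of 6. Averaging a gene's probe sets ends all 4 calls and gives others, HSPA5 and EDEM3 in the control-shRNA line and PDIA3 in the BMI1-shRNA line. CRELD2 is read by 1 probe set, so averaging leaves its values as they are. Why its call is lost there was not tested.

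Other genes of the pathway, listed by function, were called at rates above and below the 8.30% of all genes when doxycycline was given to the BMI1-shRNA line. Of 19 other ER chaperones and prolyl isomerases 1 rose and 3 fell: SERPINH1, the collagen chaperone, by 0.32, and DNAJB14 (-0.45), CNPY2 (-0.16) and FKBP11 (-0.15). Of 14 genes of glycan trimming 1 fell, MAN1A1, a Golgi mannosidase, by 0.68 on the log2 scale. Of 23 other degradation genes 3 rose and 2 fell, TMEM129 (0.31), YOD1 (0.25), RNF139 (0.13) and FAF2 (-0.23) with the largest sizes. Of 20 other signalling genes EIF2S1, the translation factor that PERK phosphorylates, fell by 0.35 on the log2 scale and TMBIM6 rose by 0.12. Of 23 targeting and translocation genes TRAM2 rose by 0.17, and SEC11C (-0.15) and SRP54 (-0.14) fell. Of 15 other disulfide isomerases and oxidases TMX4 rose by 0.13. SEC24B (-0.24) and BET1 (-0.11) were the calls among 30 genes of ER to Golgi transport, and limma called 0 of 11 oligosaccharyltransferase genes and 0 of 8 immunoglobulin genes, with 2 and 0 at an unadjusted p under 0.05. The difference between the lines' effects was called for MAN1A1 (-0.75 ± 0.08), DNAJB14 (-0.43), EIF2S1 (-0.37 ± 0.06), SERPINH1 (0.32), DNAJB12 (0.32), SEC24B (-0.27), RNF139 (0.19), SEC11C (-0.18) and TRAM2 (0.18).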

How the data were processed

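Each RNA sample was hybridised to 1 Affymetrix U133 Plus 2 array. The deposited values are intensities, linear MAS5 signals per probe set as the submitters' processing notes name them. The MAS5 version is not given in the sources used here. With 2% of values trimmed off either end, array means ran between 150.02 and 150.03, so the authors had scaled the 42 arrays to a common level. Precision is limited by the number of arrays, 3 per group. Array medians ran from 16 to 22.5.

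From these values, 62 array controls were left out, and probe sets at or above their own array's median on at least 3 arrays were retained (35232 of 54675). Values were taken as log2(signal + 5.4), 5.4 being the 25th percentile of all values. Probe sets were named through the platform's annotation table, where 41091 have 1 gene symbol, 1801 several and 11721 none. The brightest retained single-symbol probe set stood for its gene, and BMI1 was read by its probe set with 2 symbols. Means of 14 groups were fitted in R 4.3.3 with limma 3.58.1 (lmFit, contrasts, eBayes with an intensity trend) on 28 residual and 8.62 prior degrees of freedom. Two-sided p-values were adjusted over 14705 genes by Benjamini-Hochberg, and a call is an adjusted p under 0.05. Effects of doxycycline at 24, 32 and 48 h, their mean and their difference between lines, undosed lines and undosed times were compared. Single probe sets were fitted in the same way over all retained probe sets. The model was tested on simulated data.

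The members, gene lists and rules were chosen with earlier results of these data known. XBP1, ERN1, ATF6, EIF2AK3, HSPA5 and PDIA4 were always to be named, with every called member of comparisons over the mean of times, up to 10 called members of the others (the 5 smallest p under 3 calls) and up to 4 called genes of each other list. The 5 genes most like PDIA4 were to be given by correlation. Probe sets of HSPA5, SSR3 and SEC62 were singled out after their values were seen. Alternatives were pseudocounts of 1 and 18.8, keeping all probe sets or those bright at the 75th percentile, quantile normalization, averaging over a gene's probe sets, no intensity trend, only the groups compared, no 0 h arrays of the BMI1-shRNA line, a replicate block, and each array left out. Deviations from group means correlated across genes at a mean r of 0.0019 between arrays of the same number and -0.000949 of different numbers, and r was over 0.1 in 1 of 18 dosed and undosed pairs, so the numbers were not taken to pair arrays.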

Additional observations from a re-analysis of the deposited data

Results flagged for a closer look

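Dosing changed these genes differently in the 2 lines by the test of the difference itself (doxycycline effect in the BMI1-shRNA line minus that in the control-shRNA line, log2 scale, limma). Over the mean of times the differences were -0.80 for PDIA4, -0.26 for EDEM1, -0.23 for DERL1 and 0.26 for DNAJB9. At 24 h it was -0.69 for PDIA4. At 32 h it was -0.63 for PDIA4 and 0.32 for DNAJB9. At 48 h it was -1.07 for PDIA4, -0.39 for EDEM1 and 0.34 for DNAJB9. BMI1, the targeted gene, differed by -2.47 over the mean of times and by -2.25 at 24 h, -2.45 at 32 h and -2.71 at 48 h. Groups of 3 arrays are too small for a test of single outlying arrays, so none was made.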

How the results depend on the processing

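Among 64 results on single members, 1678 alternative values were computed, of which 130 lost the call, in 29 results, and 1 changed sign. That one is DERL1 at 24 h in the BMI1-shRNA line, at 0.0154 when its probe sets are averaged (adjusted p = 0.983), the dim probe set included. Counts of called members moved as follows. Averaging a gene's probe sets gave 1 for doxycycline in the BMI1-shRNA line at 24 h (2 as reported) and 1 for 24 against 0 h in that line (2 as reported), a different gene, PDIA3. Fitting only the groups compared gave, in the BMI1-shRNA line, 1 at 24 h, 1 at 32 h (4 as reported) and 3 at 48 h (5 as reported), for the difference between lines 1 at 32 h (2 as reported) and 1 at 48 h (3 as reported), for 48 against 24 h in the undosed control-shRNA line 0 (1 as reported), and for 24 against 0 h there 5 (2 as reported), with fewer arrays for the spread. The difference at 32 h was also 1 without an intensity trend and with the BMI1-shRNA line's 0 h arrays left out. For 48 against 24 h, quantile normalization gave 1 in the undosed BMI1-shRNA line (0 as reported) and 2 in the control-shRNA line, and the filter at the 75th percentile 2 and 3. For 24 against 0 h in the BMI1-shRNA line, quantile normalization gave 4, and no filter and no trend 1 each. Except where a gene's probe sets account for it, the cause was not tested.

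Leaving out 1 array at a time gave 5 to 8 calls for doxycycline in the BMI1-shRNA line over the mean of times, 1 to 2 at 24 h, 2 to 3 at 32 h and 4 to 5 at 48 h. It gave 4 for the difference over the mean of times, 1 to 2 at 32 h and 2 to 4 at 48 h, and 22 to 25 for the undosed lines. It gave 0 to 2 for 24 against 0 h in the control-shRNA line and 0 to 1 in the BMI1-shRNA line. Fits of dosed arrays of the 2 lines and of single times were added after the data were seen. The lines differed in 29 members with dosed arrays and in 16, 18 and 20 undosed at 24, 32 and 48 h. PDIA4 differed by -0.79 with dosed arrays. No share of all genes is given for these fits, so the counts are not read as particular to the members. With the replicate block the counts were 7 over the mean of times, 3 at 32 h, where DNAJB9 lost its call, and 4 for the difference. No other member's call was lost with the block. The replicate numbers were not taken to pair the arrays, and the labels do not say what they mark.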

Other observations

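Genes of neighbouring functions also differed between the undosed lines, where 43.9% of all genes were called, and 60.0% of those past the stricter brightness filter. FKBP9, a prolyl isomerase of the ER, was lower in the BMI1-shRNA line (-1.95 ± 0.14), as were CLGN, a lectin chaperone known from the testis (-1.87 ± 0.23), and QSOX1, a sulfhydryl oxidase (-1.50 ± 0.12). SERPINH1 was higher by 0.73 ± 0.06, SEC23B, a coat protein of vesicles that leave the ER, by 0.54 ± 0.06, and RPN2, a subunit of the oligosaccharyltransferase, by 0.46 ± 0.04. In the ER membrane complex, EMC7 (-0.67) and EMC4 (-0.55) were lower and EMC1 (0.33) and EMC3 (0.24) higher. Called genes were 8 of 15 other disulfide isomerases and oxidases, 11 of 19 other chaperones and prolyl isomerases, 9 of 14 genes of glycan trimming, 16 of 23 other degradation genes, 7 of 11 oligosaccharyltransferase genes, 13 of 23 targeting genes, 11 of 20 signalling genes, 18 of 30 transport genes and 1 of 8 immunoglobulin genes (IGLL5, 0.34 ± 0.10).

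Over the 14 group means, the genes most like PDIA4 were MRPL10 (Pearson r = 0.988), SLC7A1 (0.984), HIRA (0.980), MAPK6 (0.979) and EIF4G2 (0.977). Among the members the closest was EDEM1 at 0.680, and DNAJB9 ran most against it at -0.867. The group means share the 2 lines and the same dosed arrays, so these values are a description only.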
